A study of Mus musculus with 9 samples.

Results

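The angiopoietin-Tie and VEGF pathways were followed through 10 genes: the ligands Angpt1, Angpt2, Vegfa and Vegfc, the receptors Tek, Tie1, Kdr, Flt1 and Flt4, and the phosphatase Ptprb. They were chosen by symbol, 1 row each out of 52381 in a table of mouse lung RNA levels, and all 10 were among the 11817 genes with enough signal to be tested. Each of the 9 libraries came from the lung of a separate mouse. In 5 mice (TMAO) acute lung injury by lipopolysaccharide (LPS), a bacterial outer membrane component that sets off inflammation, was combined with trimethylamine N-oxide, a metabolite derived from gut bacterial products. In 4 mice (LPS-ALI) the lung had the LPS injury alone. All 9 lungs were therefore injured, and the comparison bears on the effect of TMAO during injury. The labels give no strain, sex, age, dose, route or time, and lungs without LPS were not analysed here.

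Blood vessels of the lung are kept quiet by angiopoietin-1, which pericytes and other mesenchymal cells release and which activates the receptor Tie2, the product of Tek, on endothelium. Angiopoietin-2, stored by endothelial cells and released in inflammation, competes with it, and Tie1 and the phosphatase VE-PTP, the product of Ptprb, modulate the receptor. VEGF-A acts mainly through VEGFR-2 (Kdr) to drive growth and leak of vessels, VEGFR-1 (Flt1) binds VEGF-A as a decoy, and VEGF-C acts on VEGFR-3 (Flt4), best known from lymphatic vessels.

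In these lungs 7 of the 10 genes had a higher and 3 a lower mean log2 level with TMAO (8 and 2 with TPM or median-of-ratios scaling, where Flt1 turned, and 9 and 1 with quantile normalization, where Flt4 turned as well), and none differed beyond the spread between mice. Vegfc came closest, at 5.83 ± 2.89 FPKM in TMAO lungs and 2.39 ± 0.672 FPKM in LPS-ALI lungs (SD, n = 5 and 4). Vegfa had the most negative difference, at 21.7 ± 12.3 FPKM in TMAO lungs and 33.4 ± 18.2 FPKM in LPS-ALI lungs. FPKM is a level scaled to gene length and to sequencing depth. In bulk lung, fewer cells of a type and less RNA per cell cannot be told apart. The size, and for several genes the sign, of these differences depended on single lungs, among them TMAO mice 4 and 5 and LPS-ALI mice 3 and 4.

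RefSeq promoter windows of 300 bases, from 250 before to 50 after a RefSeq start on GRCm38.p6, were at hand for 7 of the 10 genes, all except Angpt1, Angpt2 and Ptprb. Shown here are those of Tek and Tie1, paired receptors whose ratio is compared within each lung, and of Vegfa and Vegfc, the ligands with the most negative difference and the smallest p. Windows read 5′ to 3′ on the gene's own strand, and capitals mark GGAA or its reverse complement TTCC, the core bound by ETS factors, a family that acts in endothelium. Tek lies at chr4:94739039-94739338 on the plus strand and Tie1 at chr4:118489800-118490099 on the minus strand. The window of Vegfa is chr17:46032328-46032627 on the minus strand and that of Vegfc is chr8:54077282-54077581 on the plus strand. RefSeq starts need not be the starts in the GENCODE gene coordinates given below. The Vegfc window ends before the GENCODE start at 54077606, and the Flt4 window begins at 49609429, after the GENCODE start at 49609263. On the minus strand Tie1 has its GENCODE start at 118490061, so most of its window, and most of the copies marked in it, lie after that start.
Tek: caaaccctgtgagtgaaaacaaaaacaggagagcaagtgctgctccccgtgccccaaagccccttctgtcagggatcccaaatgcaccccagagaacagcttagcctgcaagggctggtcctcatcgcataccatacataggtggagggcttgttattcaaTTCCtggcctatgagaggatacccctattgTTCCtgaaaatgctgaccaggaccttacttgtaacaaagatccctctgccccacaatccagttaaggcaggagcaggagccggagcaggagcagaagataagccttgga
Tie1: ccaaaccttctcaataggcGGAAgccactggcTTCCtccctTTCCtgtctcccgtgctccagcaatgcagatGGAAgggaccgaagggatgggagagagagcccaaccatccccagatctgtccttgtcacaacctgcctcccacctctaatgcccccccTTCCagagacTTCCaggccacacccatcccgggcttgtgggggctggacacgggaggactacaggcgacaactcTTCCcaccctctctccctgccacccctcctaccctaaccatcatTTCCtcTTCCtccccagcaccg
Vegfa: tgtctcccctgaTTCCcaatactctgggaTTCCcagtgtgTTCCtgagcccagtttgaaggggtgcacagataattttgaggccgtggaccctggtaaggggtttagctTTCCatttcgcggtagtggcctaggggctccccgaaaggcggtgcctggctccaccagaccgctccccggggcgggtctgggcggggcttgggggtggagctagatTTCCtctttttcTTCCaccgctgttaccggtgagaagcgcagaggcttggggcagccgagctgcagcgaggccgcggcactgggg
Vegfc: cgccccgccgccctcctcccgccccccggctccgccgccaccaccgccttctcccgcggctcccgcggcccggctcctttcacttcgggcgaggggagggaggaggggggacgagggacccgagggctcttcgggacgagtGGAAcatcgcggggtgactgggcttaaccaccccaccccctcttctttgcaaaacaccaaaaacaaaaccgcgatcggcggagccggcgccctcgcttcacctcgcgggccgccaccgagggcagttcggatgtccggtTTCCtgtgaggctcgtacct
The core occurred 2 times in the Tek window, 9 times in that of Tie1, 6 times in that of Vegfa and 2 times in that of Vegfc. It is short, and 96.0% of 27025 RefSeq promoters held at least 1 copy on either strand, with a median of 3 and a 90th percentile of 6. Kdr had 5 copies, Flt1 had 4 and Flt4 had 2. GATAA, the GATA factor core, was in 2 of the 7 windows, those of Tek and Vegfa, against 25.8% of all promoters. The hypoxia response core ACGTG was in 0 of the 7 windows against 19.6% of all promoters, and the forkhead motif GTAAACA in 0 of 7 against 3.52%. These matches describe letters in the windows only.

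Before the comparison, the libraries themselves differed. Depth was not given, and the value of 1 read in short, low genes placed the TMAO libraries at 0.387 to 0.698 and the LPS-ALI libraries at 0.512 to 1 of the depth of the deepest one, assuming GENCODE exon lengths. TMAO mouse 5 was the shallowest, with 8846 genes of at least 1 FPKM against 11158 to 12239 in the other lungs. Its long genes were also low: the median gene of at least 4000 exonic bases lay 1.27 log2 units below the mean of the other 8 lungs, and the median gene under 1500 bases 0.39 below. The 10 genes have 2449 to 13504 exonic bases. Mitochondrial genome transcripts made up 35.9% to 52.2% of summed FPKM in TMAO lungs and 33.4% to 48.1% in LPS-ALI lungs. The share was highest in TMAO mouse 5 and lowest in LPS-ALI mouse 4, followed by TMAO mouse 4. The part of this share in the levels of the 10 genes was not tested. Endothelial markers were present in every lung: Pecam1, which codes for CD31, had 29.9 to 282 FPKM in TMAO lungs and 26.96 to 181 FPKM in LPS-ALI lungs. Prox1, which defines lymphatic endothelium, was at most 0.23 FPKM in any lung. The 7 lymphatic markers listed, Prox1 among them, summed to 52.7 to 224 FPKM in TMAO lungs and 120 to 700 FPKM in LPS-ALI lungs. Of the 5 tested, 2 were higher and 3 lower in mean with TMAO. The wording of the labels' extraction protocol names platelets, whereas the tissue is given as lung.

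**Figure D1:**
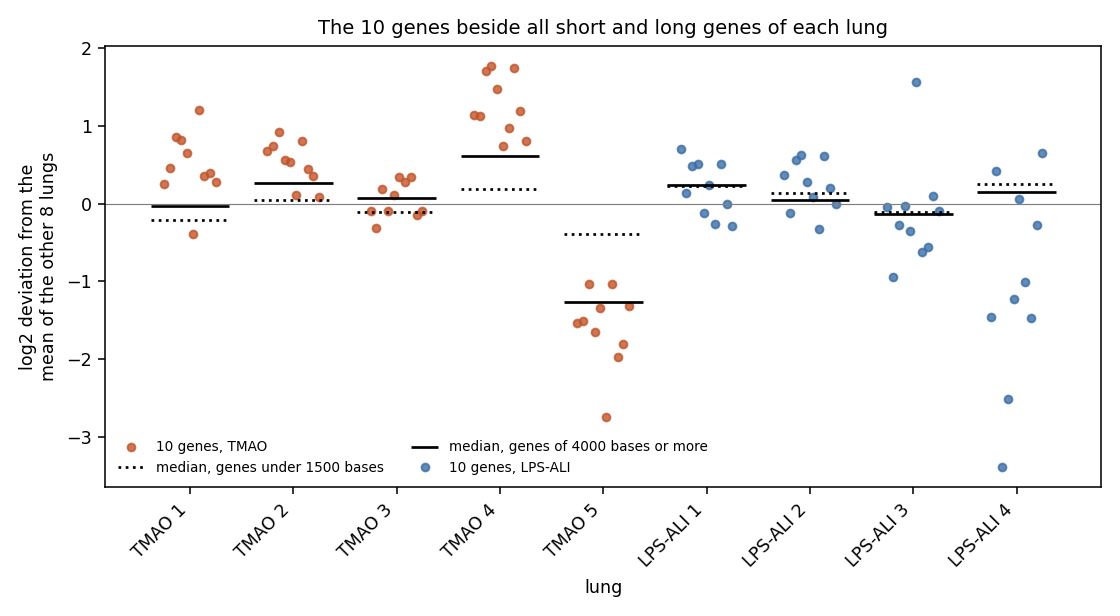
Deviation of each of the 10 genes (points, in log2 units) from the mean of the other 8 lungs, for TMAO lungs 1 to 5 and LPS-ALI lungs 1 to 4, with lines at the median of all short (under 1500 bases, dotted) and long (at least 4000 bases, solid) tested genes of the lung. All 10 points lie below 0 in TMAO 5 and above 0 in TMAO 4, and in LPS-ALI 4 they run from -3.40 for Tek to 0.66 for Flt4.

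Per-length levels put Vegfa first, with a mean of 26.9 FPKM over the 9 lungs, to which LPS-ALI mouse 3 gave the highest value, 60.7 FPKM. Tek and Tie1 followed at 16.5 FPKM each, then Kdr at 9.97, Ptprb at 9.22, Flt1 at 8.17, Angpt1 at 5.52, Vegfc at 4.30, Angpt2 at 3.67 and Flt4 at 1.82 FPKM. Every gene's range over the lungs overlapped with that of its neighbours in this order, and the order differed between groups and lungs. Tek and Tie1 were both above Vegfa in TMAO mice 1, 4 and 5, and in the LPS-ALI means Flt1 stood above Ptprb and Angpt2 above Vegfc. Within the TMAO group, mouse 5 was the lowest lung for all 10 genes and mouse 4 the highest for 9. Within the LPS-ALI group, mouse 4 was the lowest for 8 and the highest for the remaining 2, Angpt2 and Flt4.

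**Figure D2:**
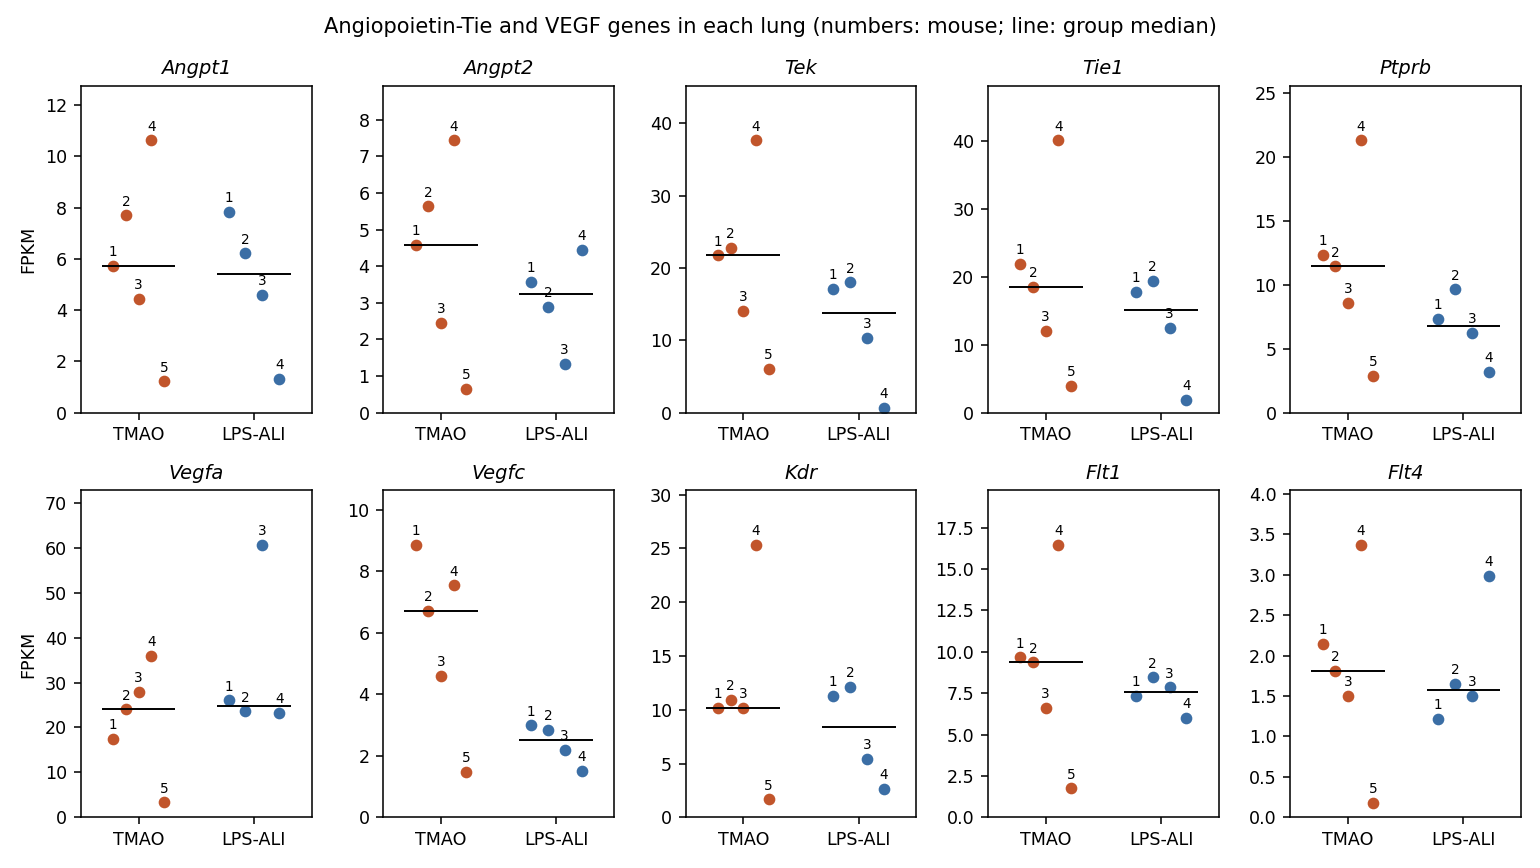
FPKM of the 10 genes in each lung, on linear axes from 0, with TMAO lungs left and LPS-ALI lungs right in every panel; numbers give the mouse and lines the group median. Vegfc had 4.59 to 8.85 FPKM in TMAO mice 1 to 4, above the 1.52 to 2.99 FPKM of the LPS-ALI mice, and 1.47 FPKM in TMAO mouse 5.

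Of the ligands of Tie2, Angpt1 (chromosome 15, 42424723 to 42676977, GRCm38), the agonist, had 5.73, 7.70, 4.44, 10.6 and 1.22 FPKM in TMAO mice 1 to 5, against 7.84, 6.22, 4.61 and 1.33 FPKM in LPS-ALI mice 1 to 4. The groups lay over each other, each with its lowest lung near the same level. Angpt1 had a log2 difference of 0.18 (limma SE 0.50, exact permutation p = 0.762), and it was -0.23 without LPS-ALI mouse 4 and -0.060 without TMAO mouse 4. Angpt2 (chromosome 8, 18690263 to 18741562), the context-dependent antagonist, had 4.58, 5.64, 2.46, 7.44 and 0.65 FPKM in TMAO mice, against 3.57, 2.90, 1.34 and 4.45 FPKM in LPS-ALI mice. TMAO mice 1, 2 and 4 were above every LPS-ALI mouse, mouse 3 lay among them and mouse 5 below them. The value in TMAO mouse 5 rests on an estimated 8.83 reads. For Angpt2 the log2 difference was 0.20 (limma SE 0.46, exact permutation p = 0.690), with -0.026 without TMAO mouse 4 and -0.040 without LPS-ALI mouse 3.

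Tek (chromosome 4, 94739289 to 94874976), the receptor itself, had 21.8, 22.8, 14.1, 37.7 and 6.09 FPKM in TMAO mice, against 17.1, 18.02, 10.3 and 0.66 FPKM in LPS-ALI mice. TMAO mice 1, 2 and 4 were above all LPS-ALI mice, and LPS-ALI mouse 4 stood far below every other lung, on an estimated 23.5 reads. The log2 difference was 1.05 (limma SE 0.66, exact permutation p = 0.286), the highest of the 10. Without LPS-ALI mouse 4 it was 0.24, and without both that lung and TMAO mouse 5 it was 0.59. It was 0.0037 without LPS-ALI mice 3 and 4 and 0.32 with library weights. Tie1 (chromosome 4, 118471191 to 118490061), the receptor that pairs with Tie2, had 21.9, 18.6, 12.1, 40.2 and 4.00 FPKM in TMAO mice, against 17.9, 19.4, 12.5 and 1.94 FPKM in LPS-ALI mice. TMAO mice 1 and 4 were above all LPS-ALI mice, TMAO mice 2 and 3 lay among them, and the lowest lung was LPS-ALI mouse 4. Its log2 difference was 0.56 (limma SE 0.63, exact permutation p = 0.492), and -0.075 without LPS-ALI mouse 4.

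Ptprb (chromosome 10, 116275523 to 116389535), whose product dephosphorylates Tie2, had 12.3, 11.4, 8.61, 21.3 and 2.90 FPKM in TMAO mice, against 7.32, 9.65, 6.22 and 3.21 FPKM in LPS-ALI mice. TMAO mice 1, 2 and 4 were above all LPS-ALI mice and mouse 5 below them. The log2 difference was 0.57 (limma SE 0.47, exact permutation p = 0.310) with all lungs and 0.93 without TMAO mouse 5, where the unadjusted limma p was 0.0167 and the adjusted p 0.642; 4.27% of all tested genes were higher with an unadjusted p under 0.05 in that smaller set. Ptprb was at 0.30 without TMAO mouse 4, 0.31 without LPS-ALI mouse 4 and 0.18 without LPS-ALI mice 3 and 4.

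Vegfa (chromosome 17, 46016993 to 46032369), made in lung by epithelium and other cells, had 17.4, 24.1, 28.0, 36.0 and 3.32 FPKM in TMAO mice, against 26.1, 23.6, 60.7 and 23.3 FPKM in LPS-ALI mice. LPS-ALI mouse 3 was above all other lungs and TMAO mouse 5 below all others, with the remaining 7 lungs between 17.4 and 36.0 FPKM. Vegfa had a log2 difference of -0.78 (limma SE 0.55, exact permutation p = 0.389). It was -0.45 without LPS-ALI mouse 3 and -0.25 without TMAO mouse 5. Markers of alveolar type 1 cells, a main source of VEGF-A in the mouse lung, summed to 684 to 1252 FPKM in TMAO lungs and 642 to 2989 FPKM in LPS-ALI lungs, with 4 of 8 higher and 4 lower in mean. Markers of platelets, which carry VEGF-A and angiopoietin-1, summed to 19.2 to 27.9 FPKM in TMAO lungs and 32.1 to 77.7 FPKM in LPS-ALI lungs, and all 5 tested ones were lower in mean with TMAO, also relative to the median gene. Of the 8 platelet markers, Itga2b, Gp1ba and Treml1 were at 0 in at least 1 lung. The part of platelets in the ligand levels was not tested.

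Vegfc (chromosome 8, 54077606 to 54187096) had 8.85, 6.71, 4.59, 7.54 and 1.47 FPKM in TMAO mice, against 2.99, 2.84, 2.20 and 1.52 FPKM in LPS-ALI mice. TMAO mice 1 to 4 were above every LPS-ALI mouse and TMAO mouse 5 below every one, on an estimated 13.3 reads. Its log2 difference was 0.89 (limma SE 0.41), with an unadjusted limma p of 0.0475, a limma p of 0.998 adjusted over 11817 genes and an exact permutation p of 0.0794. Vegfc was the only 1 of the 10 genes with an unadjusted limma p under 0.05, and 3.35% of all tested genes had one in either direction, 0.423% higher and 2.93% lower in TMAO lungs. That split, 50 genes higher and 346 lower, depends on scaling: it was 322 and 457 with median-of-ratios scaling and 441 and 450 with quantile normalization, which put the median gene at -0.026 and 0.0060 in place of -0.17. Without TMAO mouse 5 the log2 difference was 1.22 (limma SE 0.25, limma adjusted p = 0.545, exact permutation p = 0.0286), and the groups then did not overlap. Mouse 5 was the only TMAO lung not above every LPS-ALI mouse, so leaving it out had to separate the groups. The exact permutation p of 0.0286 follows from that separation and is the smallest that 4 against 4 lungs can give. Across all genes 2.92% were higher without overlap in that smaller set. Without both TMAO mouse 5 and LPS-ALI mouse 4 the Vegfc difference was 1.08 (limma adjusted p = 0.349, exact permutation p = 0.0571). The groups were again separated by leaving out TMAO mouse 5, and 5.99% of all genes were higher without overlap in that set. Angpt2, Ptprb and Vegfc then had an unadjusted limma p under 0.05, 3 of the 10 genes against 4.42% of all tested genes higher by that measure. Leaving out LPS-ALI mice 3 and 4, the libraries whose codes begin with X, the difference was 0.66.

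Kdr (chromosome 5, 75932827 to 75978458), the main signalling receptor of VEGF-A, had 10.2, 10.9, 10.2, 25.3 and 1.66 FPKM in TMAO mice, against 11.3, 12.1, 5.40 and 2.64 FPKM in LPS-ALI mice. Only TMAO mouse 4 stood above the LPS-ALI range and only TMAO mouse 5 below it. Kdr had a log2 difference of 0.36 (limma SE 0.57, exact permutation p = 0.619), and of -0.0042 without LPS-ALI mouse 4. Flt1 (chromosome 5, 147561604 to 147726011), the decoy receptor, had 9.66, 9.36, 6.63, 16.5 and 1.74 FPKM in TMAO mice, against 7.35, 8.45, 7.85 and 6.02 FPKM in LPS-ALI mice. The LPS-ALI mice lay close together within the spread of the TMAO mice. Its log2 difference was -0.0050 (limma SE 0.46, exact permutation p = 1), and 0.40 without TMAO mouse 5. Flt4 (chromosome 11, 49609263 to 49652739), the receptor of VEGF-C, had 2.15, 1.81, 1.5, 3.37 and 0.18 FPKM in TMAO mice, against 1.22, 1.65, 1.5 and 2.99 FPKM in LPS-ALI mice. Only TMAO mouse 4 was above and only TMAO mouse 5 below the LPS-ALI range, and the value in mouse 5 rests on an estimated 5.45 reads. For Flt4 the log2 difference was -0.10 (limma SE 0.37, exact permutation p = 0.849), and 0.074 without LPS-ALI mouse 4.

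By limma, 0 of the 10 genes and 0 of all 11817 tested genes, which is 0%, passed an adjusted p of 0.05, with 396 genes at an unadjusted p under 0.05 and a smallest adjusted p of 0.382. By the exact permutation test of each gene, 0 of 10 were under 0.05. None of the 10 genes had groups that did not overlap, against 0.118% of all genes higher and 1.36% lower in TMAO lungs. Positive differences were found in 7 of the 10 genes and in 27.9% of all tested genes. The median log2 difference was 0.28 over the 10 genes and -0.17 over all tested genes, so that 9 of the 10, all but Vegfa, lay above the median gene. The median of all tested genes was -0.026 with median-of-ratios scaling, 0.0060 with quantile normalization and 0.049 without TMAO mouse 5. Relative to the median gene over all lungs, the 10 genes had a median of 0.45 and 16 other endothelial genes had 0.50. The median over the 10 genes was -0.0039 without TMAO mouse 4 and 0.035 without LPS-ALI mouse 4, with 5 of 10 higher in each, 0.70 without TMAO mouse 5 and -0.044 without LPS-ALI mice 3 and 4. The limma standard errors of the 10 genes were 0.37 to 0.66 log2 units.

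**Figure D3:**
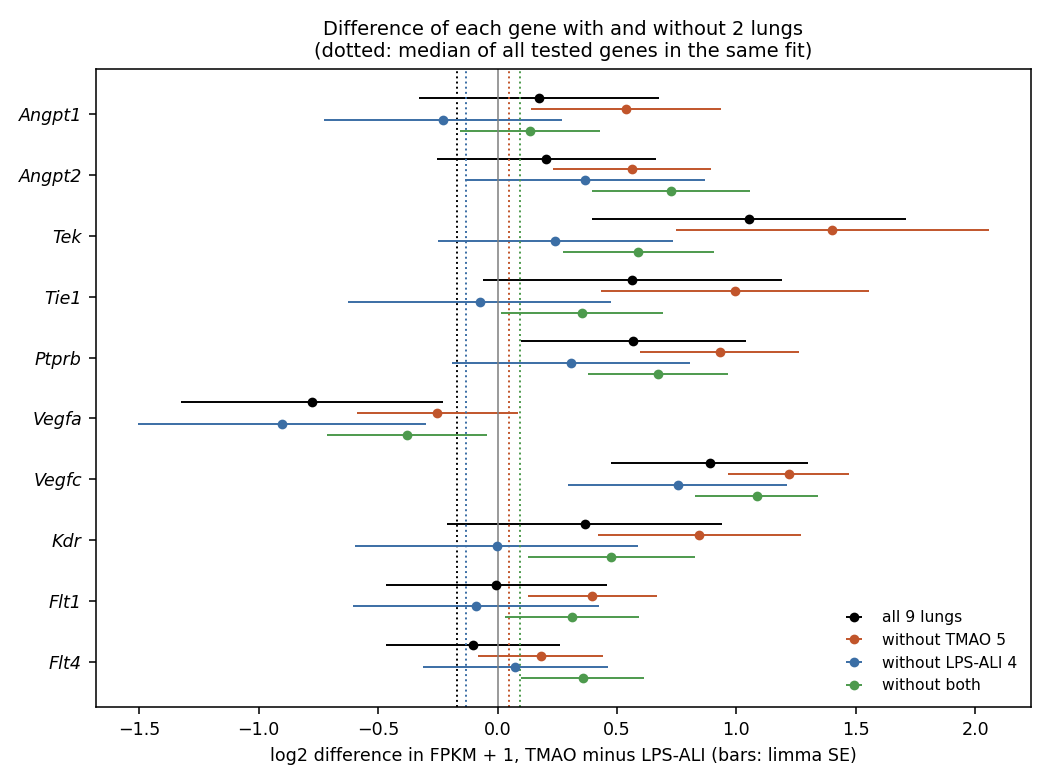
Log2 difference in FPKM + 1, TMAO minus LPS-ALI, for each gene with its limma standard error (bars), over all 9 lungs and without TMAO 5, LPS-ALI 4 or both; dotted lines give the median of all tested genes in the same fit. Tek was at 1.05 over all lungs and 0.24 without LPS-ALI 4, while Vegfc stayed between 0.75 and 1.22 in these 4 fits.

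Ratios between genes of the same lung do not depend on a scaling factor common to all genes of a library, and 4 were compared. A shift with gene length, as in TMAO mouse 5, need not cancel in them. The ratio of Angpt2 to Angpt1, antagonist over agonist, was 0.799, 0.733, 0.554, 0.700 and 0.533 in TMAO mice 1 to 5, against 0.455, 0.466, 0.291 and 3.35 in LPS-ALI mice 1 to 4. All 5 TMAO lungs were above LPS-ALI mice 1 to 3, and LPS-ALI mouse 4 was far above everything else. Over all lungs the log2 difference was -0.040 (exact permutation p = 0.984, also after adjustment over the 4 ratios). Without LPS-ALI mouse 4 it was 0.73 (exact permutation p = 0.0179, adjusted p = 0.0714 over the 4 ratios), a set in which 0.0179 is the smallest p that the permutation can give. That lung was the only LPS-ALI lung not below all TMAO lungs. Leaving it out therefore had to separate the groups and give this p.

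The ratio of Tie1 to Tek was 1.01, 0.815, 0.856, 1.07 and 0.657 in TMAO mice, against 1.04, 1.08, 1.21 and 2.94 in LPS-ALI mice. TMAO mice were below all LPS-ALI mice except for mouse 4, which was above LPS-ALI mouse 1. The log2 difference was -0.71 (exact permutation p = 0.0159, adjusted p = 0.0635 over the 4 ratios) and missed the threshold after adjustment. Without LPS-ALI mouse 4 it was -0.35 (exact permutation p = 0.0714).

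The ratio of Ptprb to Tek was 0.567, 0.502, 0.612, 0.565 and 0.476 in TMAO mice, against 0.428, 0.536, 0.603 and 4.86 in LPS-ALI mice. All lungs but LPS-ALI mouse 4 were near the same ratio, and the log2 difference of -0.74 (exact permutation p = 0.413) was 0.070 without that lung. The ratio of Flt1 to Kdr, decoy over signalling receptor, was 0.948, 0.859, 0.652, 0.650 and 1.05 in TMAO mice, against 0.649, 0.698, 1.45 and 2.28 in LPS-ALI mice. Only LPS-ALI mice 3 and 4, both from libraries with codes beginning with X, stood above the TMAO lungs. The log2 difference was -0.44 (exact permutation p = 0.333), and 0.28 without these libraries.

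**Figure D4:**
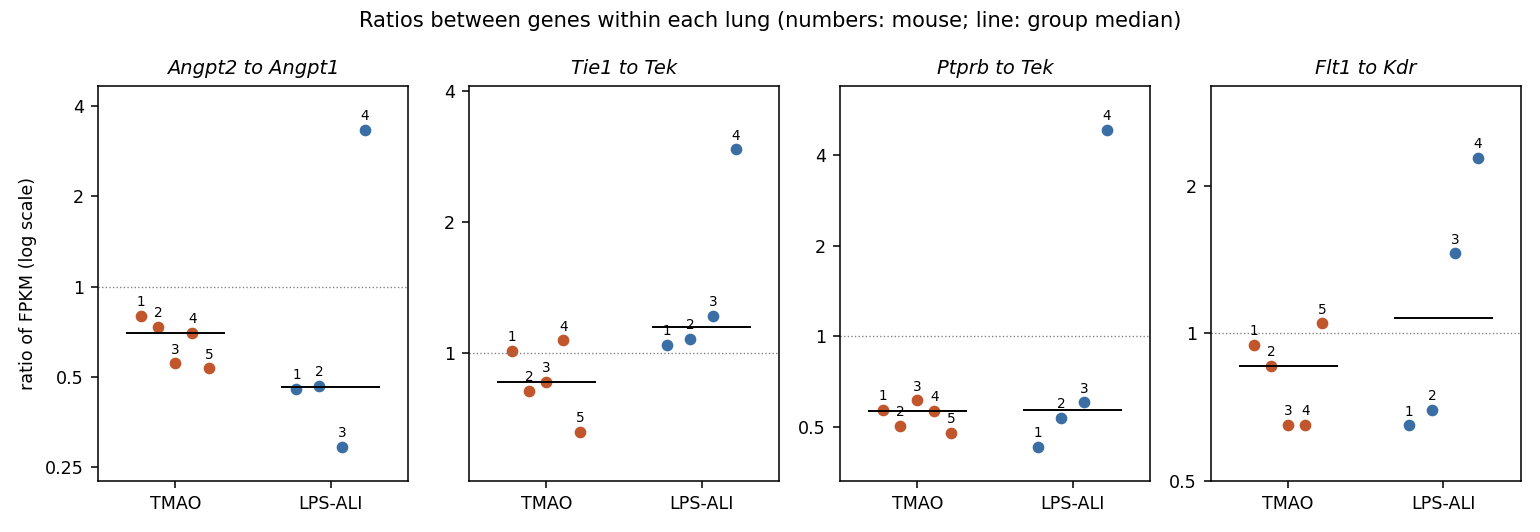
Ratios of FPKM within each lung on a log scale, TMAO lungs left and LPS-ALI lungs right; numbers give the mouse and lines the group median. LPS-ALI mouse 4 holds the highest value in all 4 panels, with 3.35 for Angpt2 to Angpt1 and 4.86 for Ptprb to Tek.

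Levels were then set against 16 other endothelial genes of the same lung, such as Pecam1 and Cdh5, the gene of VE-cadherin. The mean log2 level of these markers was 6.22 ± 0.92 in TMAO lungs and 5.84 ± 0.72 in LPS-ALI lungs (SD, exact permutation p = 0.492), with 10 of 16 higher in mean in TMAO lungs and 12 of 16 relative to the median gene. Relative to them, Tek was at -2.001 ± 0.154 log2 units in TMAO lungs and at -2.67 ± 0.98 in LPS-ALI lungs (SD), a difference of 0.67 (exact permutation p = 0.0317). It was the only gene of 10 under 0.05 in this measure, with no adjustment for the 10 tests, and the difference was 0.18 without LPS-ALI mouse 4 (exact permutation p = 0.143). Of the 9 sets that leave out a single lung, 1 kept Tek under 0.05. In 7 of the other 8 the difference was 0.65 to 0.84 (exact permutation p = 0.0536 to 0.114), and only without LPS-ALI mouse 4 was it lower. LPS-ALI mouse 4 had the lowest level among LPS-ALI lungs for 9 of the 16 markers and the highest for 2, so its endothelial genes were not all low. Calcrl had 4.89 FPKM there against 67.0 to 144 FPKM in LPS-ALI mice 1 to 3, and Cldn5 had 255 against 127 to 193 FPKM.

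Vegfa relative to the markers was -2.01 ± 0.48 in TMAO lungs and -0.85 ± 1.00 in LPS-ALI lungs, a difference of -1.16 (exact permutation p = 0.0556). Without LPS-ALI mice 3 and 4 it was -0.31. Vegfc was at -3.59 ± 0.37 in TMAO lungs and -4.10 ± 0.42 in LPS-ALI lungs, a difference of 0.51 (exact permutation p = 0.103). Ptprb differed by 0.18 (exact permutation p = 0.111). Kdr, at -2.89 ± 0.30 in TMAO lungs and -2.87 ± 0.17 in LPS-ALI lungs, had the smallest difference in group means, -0.019 (exact permutation p = 0.952), and a difference of 0.20 (exact permutation p = 0.0556) against Pecam1 and Cdh5 only. In single lungs Kdr departed from its own mean by -0.44 to 0.34 log2 units, against -0.40 to 0.17 for Ptprb and -0.21 to 0.33 for Angpt1. Pericyte markers, from the cells that release angiopoietin-1, summed to 87.8 to 662 FPKM in TMAO lungs and 58.1 to 403 FPKM in LPS-ALI lungs, with 7 of 8 higher in mean in TMAO lungs, also relative to the median gene. Cspg4, which codes for NG2, was at 0.88 FPKM in TMAO mouse 5 and 0.15 FPKM in LPS-ALI mouse 4, the lowest lung of each group. The part of pericyte and endothelial content in the 10 genes' levels was not tested.

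**Figure D5:**
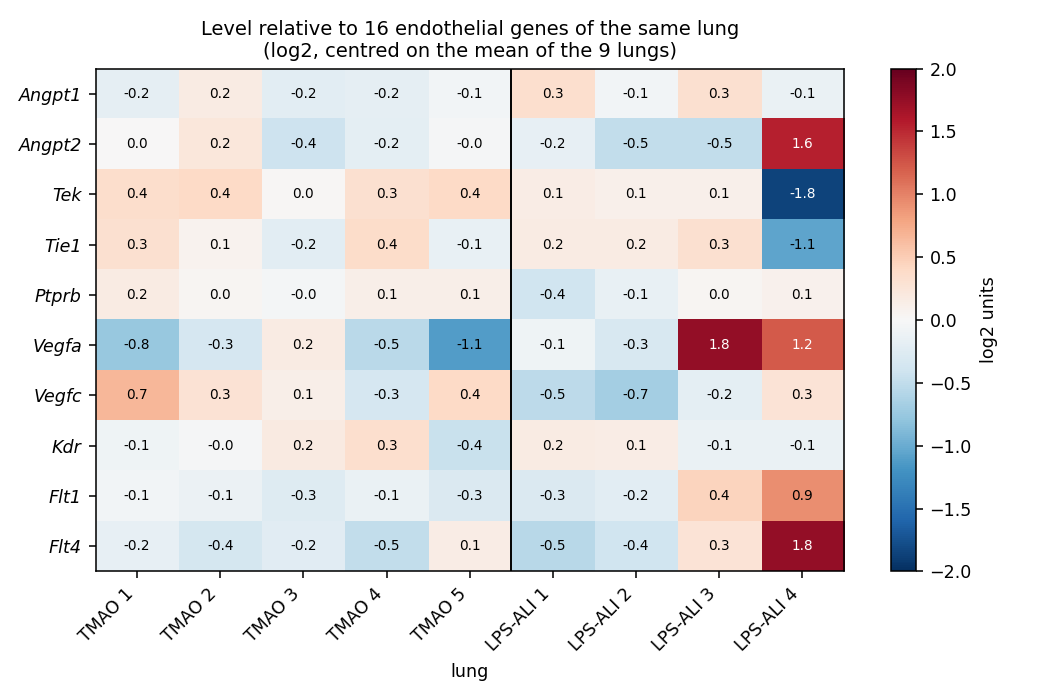
Level of each gene relative to the mean of 16 endothelial genes of the same lung, in log2 units centred on the mean of the 9 lungs; red is higher and blue lower, TMAO lungs stand left of the line and LPS-ALI lungs right. Tek has its lowest value in LPS-ALI 4, where Angpt2 and Flt4 have their highest.

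Other genes of both pathways were read from 4 lists, none of whose genes passed an adjusted p of 0.05. Of 6 further genes, namely VEGF ligands, co-receptors and Sema3f, 4 were higher and 2 lower in mean. Of these 6, 0 passed an unadjusted p of 0.05, and the median log2 difference was 0.034. The co-receptor Nrp1 had 13.7 ± 10.7 FPKM in TMAO lungs and 8.65 ± 4.78 FPKM in LPS-ALI lungs, and its partner Nrp2 had 1.48 ± 0.844 and 1.32 ± 0.452 FPKM in TMAO and LPS-ALI lungs. Vegfb, a ligand of VEGFR-1, was at 9.11 ± 1.49 FPKM in TMAO lungs and 9.00 ± 1.87 FPKM in LPS-ALI lungs. Pgf, which codes for placental growth factor, had 12.7 ± 8.78 FPKM in TMAO lungs and 10.1 ± 2.60 FPKM in LPS-ALI lungs. Vegfd, a ligand of VEGFR-3 in mouse, had 3.62 ± 2.62 FPKM in TMAO lungs and 4.05 ± 2.26 FPKM in LPS-ALI lungs, and the neuropilin ligand Sema3f had 31.5 ± 22.6 and 20.4 ± 3.90 FPKM in TMAO and LPS-ALI lungs.

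Of 19 tested genes that carry the signal of Tie2 and VEGFR-2 inside the cell, 8 were higher and 11 lower in mean, with a median log2 difference of -0.18 beside -0.17 over all tested genes. Cav1, the caveolae protein, had 342 ± 94.1 FPKM in TMAO lungs and 198 ± 139 FPKM in LPS-ALI lungs, a log2 difference of 1.15 (limma unadjusted p = 0.0396). Its lowest lung was LPS-ALI mouse 4 with 38.7 FPKM. Dok2, an adaptor that binds Tie2 and is also a gene of blood cells, had 2.24 ± 1.25 FPKM in TMAO lungs and 4.66 ± 1.98 FPKM in LPS-ALI lungs (limma unadjusted p = 0.0450). Hspb1, a small heat shock protein downstream of VEGFR-2, had 179 ± 66.1 and 365 ± 317 FPKM in TMAO and LPS-ALI lungs (limma unadjusted p = 0.114).

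Among 11 tested genes known to be induced by VEGF or FOXO1, the transcription factor that Tie2 signalling restrains, 4 were higher and 7 lower, with a median log2 difference of -0.20. Ccn1, a secreted matrix protein, had 11.2 ± 9.79 FPKM in TMAO lungs and 27.3 ± 14.5 FPKM in LPS-ALI lungs (limma unadjusted p = 0.0295), with 0.30 FPKM in TMAO mouse 5. Rcan1, a calcineurin inhibitor that VEGF induces, had 17.5 ± 8.64 FPKM in TMAO lungs and 30.1 ± 15.1 FPKM in LPS-ALI lungs, and the basement membrane gene Nid2 had 3.46 ± 2.28 and 1.59 ± 1.06 FPKM in TMAO and LPS-ALI lungs.

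Hypoxia targets share the control that raises Vegfa when oxygen is low, and 9 of 12 tested ones were lower in mean in TMAO lungs, with a median log2 difference of -0.44, or -0.27 relative to the median gene. Over all tested genes 72.1% were lower, close to this share. An unadjusted limma p under 0.05 was reached by 3 of them, all lower, against 2.93% of all tested genes, each with a limma adjusted p of 0.998. Of these 3, Hif1a is a regulator in the list rather than a target. Summed FPKM of the 13 listed genes was 231 to 1301 in TMAO lungs (median 779). In LPS-ALI lungs it was 449 to 637 (median 580), so the sums did not follow the count of lower genes. Hif1a, the oxygen-regulated factor itself, had 12.4, 15.5, 19.0, 22.6 and 3.79 FPKM in TMAO mice, against 24.8, 28.5, 23.9 and 59.2 FPKM in LPS-ALI mice. Every TMAO lung was below every LPS-ALI lung, which held for 1.36% of all tested genes. Hk2, hexokinase 2 of glycolysis, had 0.91, 1.62, 2.18, 2.87 and 2.47 FPKM in TMAO mice, against 4.28, 3.36, 7.34 and 5.03 FPKM in LPS-ALI mice, again with no overlap. Ndrg1 had 5.64 ± 2.42 FPKM in TMAO lungs and 30.5 ± 42.9 FPKM in LPS-ALI lungs, of which mouse 4 alone had 94.9 FPKM. Markers of several other cell types were lower as well, but not of all: of 8 alveolar type 2 markers 7 were higher and 1 lower. For ciliated cells all 6 tested markers had a lower mean in TMAO lungs, 4 of them with an unadjusted limma p under 0.05, with sums of 57.3 to 108 FPKM in TMAO lungs and 76.3 to 218 FPKM in LPS-ALI lungs. Their mean log2 level was 2.62 to 2.85 in TMAO lungs, and 3.07, 2.72, 4.12 and 4.64 in LPS-ALI mice 1 to 4. The highest 2 were thus the X-coded libraries, LPS-ALI mice 3 and 4, and mouse 2 lay within the TMAO range. All 4 tested T and NK cell markers were lower, with sums of 10.1 to 20.1 FPKM in TMAO lungs and 28.2 to 85.1 FPKM in LPS-ALI lungs, and Cd3d, Cd8a, Nkg7 and Trac at 0 in at least 1 lung. So were all 6 tested markers of alveolar macrophages, and the 7 listed summed to 89.5 to 270 FPKM in TMAO lungs and 217 to 408 FPKM in LPS-ALI lungs. All 6 tested markers of monocytes and interstitial macrophages were lower, and the 8 listed summed to 178 to 298 FPKM in TMAO lungs and 285 to 508 FPKM in LPS-ALI lungs. Relative to the median gene, 1 of 6 alveolar macrophage and 2 of 6 monocyte and interstitial macrophage markers were higher, with medians of -0.35 and -0.095. The part of these cells in the hypoxia genes was not tested. Vegfa, the best known of these targets in vessels, had no such separation, as LPS-ALI mice 1, 2 and 4 lay within the TMAO range.

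The genes whose profiles over the 9 lungs were most like that of a pathway gene were found by the root mean square difference of centred log2 levels. For Tek these were Impdh1, Tmeff1, Sox18, Clec9a and Podxl, at 0.24 to 0.29 log2 units, against 1.25 for the median tested gene. Sox18 codes for an endothelial transcription factor and Podxl for a sialomucin of endothelium and podocytes. For Kdr they were Nfic, Acvrl1, Efnb2, Lamc1 and Frmd6 at 0.14 to 0.17, for Angpt1 they were Tgfb3, Atp6ap1, Pdia5, Sgce and Man2b1 at 0.12 to 0.16, and for Angpt2 they were Cxcr4, Fyn, Mbnl2, C130074G19Rik and Tmem65 at 0.18 to 0.20. For Vegfa the list was Nup88, Zswim8, Mfsd10, Phrf1 and Cog1 at 0.23 to 0.29. All these profiles come from the same 9 libraries and share their depth and composition, so they describe likeness only.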

How the data were processed

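RNA sequencing of 5 TMAO and 4 LPS-ALI lungs was used, grouped by the labels, which also number the mice. Per the labels' protocols, libraries came from RNA depleted of ribosomal RNA (NEBNext Ultra II). The submitters' processing notes name featureCounts, HISAT2, SAMtools and fastp, and mm10 as build, with no versions; for strand setting and gene lengths, the labels give nothing. The authors deposited FPKM, scaled to gene length and depth, with 1 column per library.

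FPKM are not counts, so log2(FPKM + 1) was tested, which understates changes of low genes. Genes with at least 1 FPKM in at least 4 libraries (11817) were fitted with limma 3.58.1 in R 4.3.3 (mean-variance trend, two-sided, Benjamini-Hochberg). Exact permutation tests used all 126 splits of the lungs into groups of 5 and 4 (two-sided, smallest p 0.00794); ratios were adjusted over 4 tests. The script was tested on simulated data with independent noise for each gene, so shifts shared by the genes of a library were not simulated. P-values measure the spread between these mice. Of 52381 identifiers, 52073 matched GENCODE M21 (GRCm38, which is mm10); of repeated symbols the row with the highest mean was used. Estimated read numbers are FPKM times exon length and estimated depth, so no counting interval is given.

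The 10 genes, the gene lists and the tests were chosen with earlier results of these data known. Named were all 10 genes, the 3 genes of smallest unadjusted p in each pathway list with every VEGF ligand and neuropilin, and for 5 genes the 5 most similar profiles. Calcrl, Cldn5, Cspg4 and Prox1 were named after their values were seen. Alternatives were other pseudocounts, filters, scalings and variance models, a replicate block, other endothelial genes, and leaving out libraries. Figures were made with matplotlib 3.10.9 in Python 3.11.15.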

Additional observations from a re-analysis of the deposited data

Results flagged for a closer look

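Vegfa in LPS-ALI mouse 3 was at 60.65 FPKM, far above the other LPS-ALI lungs at 23.3 to 26.1 FPKM, with a gap to the nearest of them of 0.884 of the group's range on the log2(FPKM + 1) scale and 0.926 on the FPKM scale. The ratio of Tie1 to Tek was 2.94 in LPS-ALI mouse 4, against 1.04 to 1.21 in the other LPS-ALI lungs, a gap of 0.854 of the range of log2 ratios and 0.910 of that of the ratios. The ratio of Ptprb to Tek was 4.86 in LPS-ALI mouse 4, against 0.428 to 0.603 in the others, a gap of 0.859 of the range of log2 ratios and 0.961 of that of the ratios. These 3 came from 28 groups of values checked for a sample far from its group, of which chance alone marks about 1 in 20. The check was made on log2 values. On the linear scale, tried after seeing the data, 4 of the 28 groups stood out: these 3 and Angpt2 to Angpt1, at 3.35 in LPS-ALI mouse 4 against 0.291 to 0.466 in the others, with a gap of 0.943 on the linear and 0.807 on the log2 scale. The Tie1 to Tek and Ptprb to Tek ratios share the Tek value of that lung, an estimated 23.5 reads.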

How the results depend on the processing

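The count of genes past an adjusted p of 0.05 was 0 in all fits except with library weights, where it was 51, and when a single library was left out, where it was 0 to 3 (3 without TMAO mouse 4 and 1 without LPS-ALI mouse 3). The 396 genes at an unadjusted p under 0.05 became 779 with median-of-ratios scaling, 891 with quantile normalization, 1634 with library weights, 848 of 24691 genes with no filter, 860 without TMAO mouse 5 and 868 without TMAO mouse 5 and LPS-ALI mouse 4. They became 185 without the X-coded libraries, 265 with TPM scaling and 242 without TMAO mouse 1, 257 without LPS-ALI mouse 4 and 576 without TMAO mouse 4. None of the 10 genes passed in any fit, and Vegfc came closest, at a limma adjusted p of 0.0751 with library weights, which gave TMAO mouse 5 a weight of 0.0879. The difference of Vegfc was positive in every alternative. No paired structure was seen: deviations of same-numbered mice correlated at 0.0641, -0.0111, -0.0331 and -0.134. With the mouse number as a replicate block over mice 1 to 4 of each group, 0 genes passed (limma, smallest adjusted p 0.754, 744 genes at an unadjusted p under 0.05), and Flt1 was at 0.40 and Flt4 at 0.18.

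Signs turned elsewhere as follows, as log2 differences. Flt1 was 0.022 with TPM scaling, 0.13 with median-of-ratios scaling, 0.16 with quantile normalization, 0.069 with library weights and 0.31 without TMAO mouse 5 and LPS-ALI mouse 4. Flt4 was 0.017 with quantile normalization, 0.12 with library weights and 0.36 without both lungs. Without the X-coded libraries (LPS-ALI mice 3 and 4), Flt4 was 0.089, Angpt1 -0.40, Tie1 -0.25 and Kdr -0.33; with library weights Angpt1 was -0.028. The X code occurs only in the LPS-ALI group. Ratios without the X-coded libraries were 0.51 for Angpt2 to Angpt1, 0.18 for Ptprb to Tek and 0.28 for Flt1 to Kdr, and without both lungs 0.80 for Angpt2 to Angpt1 and 0.12 for Ptprb to Tek. Relative to endothelial genes, differences without the X-coded libraries were 0.25 for Angpt2, -0.085 for Tie1, 0.078 for Flt1 and 0.26 for Flt4. Without both lungs they were 0.29 for Angpt2, -0.082 for Tie1 and 0.041 for Kdr. Against Pecam1 and Cdh5 only, Angpt1 was 0.012, Angpt2 0.040 and Kdr 0.20. The number of genes with an exact permutation p under 0.05 in that measure was 1 over all lungs, 2 without the X-coded libraries or with a pseudocount of 0.1, 0 without both lungs, and 0 to 2 when leaving out a single lung. The cause was not tested.

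Leaving out each lung in turn, the log2 difference ran from -0.23 to 0.54 for Angpt1, -0.040 to 0.56 for Angpt2, -0.075 to 0.99 for Tie1, -0.0042 to 0.84 for Kdr, -0.27 to 0.40 for Flt1 and -0.29 to 0.18 for Flt4. Ratios ran from -0.45 to 0.73 for Angpt2 to Angpt1 and -1.10 to 0.070 for Ptprb to Tek. Relative to endothelial genes, Angpt2 ran from -0.38 to 0.30, Tek from 0.18 to 0.84, Tie1 from -0.14 to 0.32, Vegfa from -1.48 to -0.79, Kdr from -0.11 to 0.089 and Flt4 from -0.76 to 0.011. Few estimated reads underlie Flt4, Angpt2 and Vegfc in TMAO mouse 5, the shallowest library, and Tek in LPS-ALI mouse 4. The library of LPS-ALI mouse 4 was not shallow, at 0.795 of the deepest one and above every TMAO library. Its marker levels were unusual beyond endothelium. The tested red cell markers had a mean log2 level of 7.82 there, against 4.41 to 4.69 in LPS-ALI mice 1 to 3. The tested alveolar type 2 markers were at 5.02, against 6.93 to 8.03 in those mice. The part of cell content in the values of that lung was not tested.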
